A study of Caenorhabditis elegans with 4 samples.

Results

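The sites described here are places where both LIN-35::GFP immunoprecipitations from fed first-stage (L1) larvae of *Caenorhabditis elegans* gave a peak, but which the combined peak list of the study does not contain. There were 945 of them, among 26553 nuclear peaks of ChIP replicate 1. They were chosen by measured values, in 3 steps. Peaks on the 6 nuclear chromosomes had to carry a peak number of 13000 or less in replicate 1. A replicate 2 peak with a number of 14000 or less had to have its midpoint within 100 bp. Finally, the replicate 1 peak had to overlap no combined peak by as much as 1 bp. Peak numbers are the authors' own numbering, with 1 as the best; they ran opposite to the peak scores (Spearman's rho of -0.999 over the 26583 peaks of replicate 1 and -0.998 over the 28727 of replicate 2).

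LIN-35 is the worm relative of the retinoblastoma tumour suppressor. It belongs to the DREAM complex, which sits at promoters of cell cycle and germline genes together with E2F and DP proteins and keeps them repressed. LIN-35 itself does not read a DNA sequence; its DNA-binding partners do. In larvae, loss of *lin-35* is known to let germline genes come on in the soma and to act with other genes of the synthetic multivulva classes in vulval fate.

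The study mapped LIN-35::GFP in hermaphrodites of strain YL409, grown at 20 °C on bacteria and fixed in 2% formaldehyde. All samples share the genotype: *unc-119(ed3)* on chromosome III and the transgene vrIs60, in which the *lin-35* promoter drives LIN-35 fused to GFP and FLAG, followed by the *dpl-1* 3'-UTR, with *unc-119(+)* as the rescue marker. The line was not outcrossed, per the labels, and the antibody sees only the tagged protein of the transgene. The 4 samples are 2 ChIP samples and 2 inputs, with 1 peak list for each ChIP sample, 1 combined list, and no list analysed here for the inputs. Whole larvae were used, so fewer bound cells and weaker binding per cell cannot be told apart. The labels do not say whether the replicates were separate cultures, and read depth is unknown because the lists hold scores and not reads. With 2 samples of 1 kind no test over samples exists, so the values below are descriptions. Wilson 95% intervals cover counting error over peaks and treat peaks as independent.

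Genes and sequences at the sites are not given, since the peak lists use build WS220 and the gene table at hand uses WBcel235.

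Outside the combined list, replicate 1 peaks had a partner in replicate 2 more often than the same positions after random shifts. Of the 8598 replicate 1 peaks within the number limit and outside the combined list, 945 (11.0%) had a partner within 100 bp. At combined peaks this was 3933 of 4373 (89.9%), and over all 12971 peaks within the limit it was 4878 (37.6%). The rule itself fixes these counts. For the chance level, the replicate 2 peaks of each chromosome were moved together along a circle by a random distance of at least 5 kb, and this was done 1000 times. Outside the combined list the shifted lists gave a mean of 242 partners (range 198 to 301), or 2.81% of the peaks. The observed count was thus 3.91 times the mean of the shifts. The mean of the shifts equals 25.6% of the 945 sites, and the lists cannot show which of the sites those would be. With shifts of 5 to 50 kb the mean equals 28.1% of the 945. With only replicate 2 peaks outside the combined list, a choice made after seeing the data, it equals 16.6% of 941 sites. At combined peaks the observed count was 30.8 times the shift mean of 128.

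The excess was seen on every chromosome. Chromosome V had 154 of these sites against a shift mean of 36.1, a factor of 4.27. X had 157 against 38.6 (4.06), IV 144 against 36.3 (3.97), I 170 against 43.2 (3.94), II 149 against 39.6 (3.77) and III 171 against 48.2 (3.55). On each chromosome the observed count lay above the highest of the 1000 shifts, which was 76 on chromosome III and 56 to 61 on the others.

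The rule made partners lie within 100 bp, and within that limit short distances were the more frequent. Midpoints of the 945 pairs lay a median of 42 bp apart (interquartile range 19 to 69 bp), against 20 bp (8 to 42 bp) for the 3933 shared sites at combined peaks. Both values are bounded by the limit of 100 bp. Outside the combined list the shifted lists spread evenly within it, with a mean of 121 under 50 bp and 121 from 50 to under 100 bp. Outside the combined list 547 peaks had their nearest replicate 2 midpoint under 50 bp away, 4.53 times the shift mean of 121. A further 390 lay from 50 to under 100 bp away (3.22 times), and 8 lay at exactly 100 bp. The excess went on past the limit and faded gradually: 282 peaks from 100 to under 150 bp (2.38 times) and 211 from 150 to under 200 bp (1.80 times). From 200 to under 300 bp there were 264, which lies within the shift range of 187 to 284. From 300 to under 400 bp there were 198, also within the range (172 to 275). From 400 to 500 bp there were 252, 1.23 times the shift mean of 205 and 1 above the highest shift, 251. The limit of 100 bp therefore falls inside a slope. At combined peaks the profile was much steeper, with 1915 of 4373 peaks under 20 bp away, 75.9 times the shift mean. Replicate 2 midpoints lay at a higher coordinate than replicate 1 midpoints in 469 of the 945 pairs, at a lower one in 467 and at the same one in 9.

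**Figure D1:**
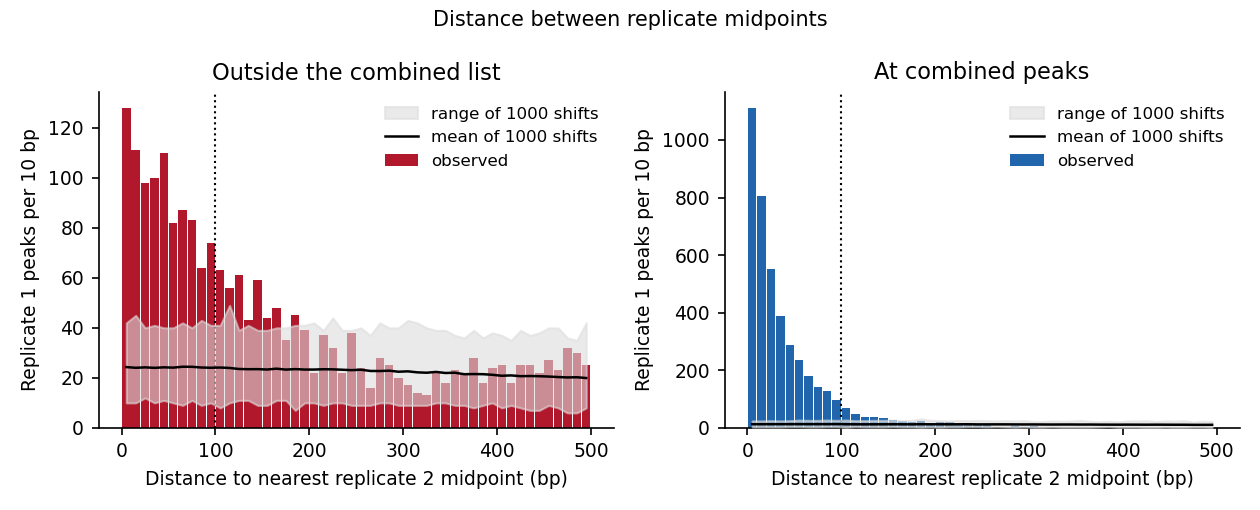
Number of replicate 1 peaks (y axis, per 10 bp) by distance from their midpoint to the nearest replicate 2 midpoint (x axis, bp), for peaks outside the combined list (left) and at combined peaks (right); bars are observed counts, the grey band and black line are the range and mean of 1000 circular shifts, and the dotted line marks 100 bp. Outside the combined list the bars stand above the band near 0 and reach it at about 200 bp, while at combined peaks 1915 peaks lie under 20 bp.

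The share of peaks with a partner fell along the numbering and stayed above the shifted lists to its end. Among replicate 1 peaks outside the combined list with numbers 3001 to 4000, 106 of 501 had a partner (21.2%, Wilson 95% interval 17.8 to 24.9%). With numbers 6001 to 7000 it was 90 of 868 (10.4%, 8.51 to 12.6%), and with numbers 12001 to 13000 it was 71 of 963 (7.37%, 5.89 to 9.20%). The shift mean was about the same in each of these groups, at 2.81%, 2.83% and 2.81%. In the last group the shifts gave a mean of 27.1 partners and at most 47, against the 71 observed.

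**Figure D2:**
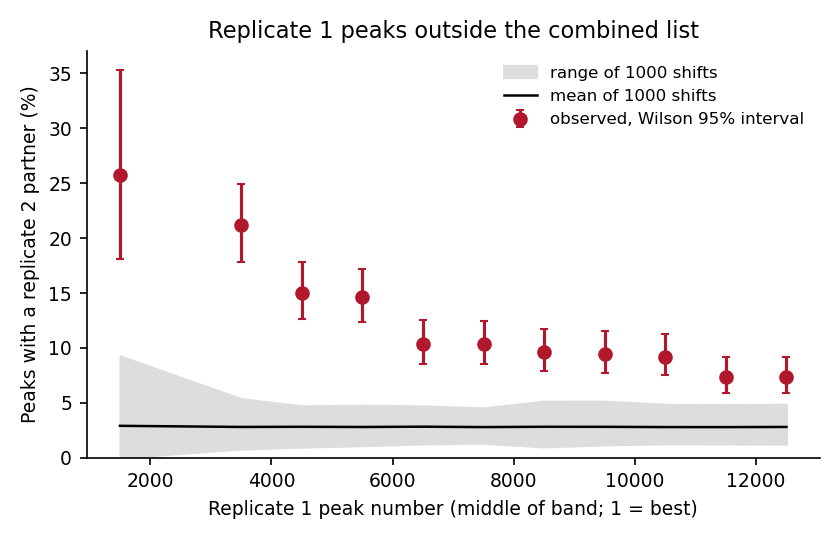
Share of replicate 1 peaks outside the combined list that have a replicate 2 partner within 100 bp (y axis, %) by replicate 1 peak number (x axis, middle of each band); red points are observed shares with Wilson 95% intervals, and the grey band and black line are the range and mean of 1000 circular shifts. The share is 21.2% for numbers 3001 to 4000 and 7.37% for numbers 12001 to 13000, above the band throughout.

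Splitting both numberings in the middle gave an excess in each of the 4 combinations. Where the replicate 1 number was 6500 or less and the replicate 2 number 7000 or less, there were 126 sites against a shift mean of 36.3, a factor of 3.47. With the lower-numbered part of replicate 1 and the higher-numbered part of replicate 2 there were 278 against 36.1 (7.70). The reverse case gave 178 against 85.1 (2.09). Where both numbers lay in the higher part there were 363 against 84.8 (4.28). The combined list had already taken most shared sites where both numbers are low, so these factors do not rank the combinations by strength.

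In rank, the sites stood below the head of both replicate lists, and the number limits of the rule set their lower end. Their replicate 1 numbers ran from 1953 to 12970 with a median of 7254 (interquartile range 4944 to 9952). Their replicate 2 numbers ran from 2995 to 13982 with a median of 8206 (6644 to 10730). For shared sites at combined peaks the medians were 2055 and 2051. The replicate 1 score was at the ceiling of that list, 3.84, in 68 of the 945 sites (7.20%), against 2950 of the 3933 at combined peaks (75.0%). In replicate 2 it was at the ceiling of 3.45 in 0 of the 945 sites, against 1365 of the 3933 (34.7%). Over the whole lists 3446 peaks of replicate 1 and 1401 of replicate 2 were at the ceiling, so these shares do not compare the replicates. A count of peaks equal to the size of the combined list, 4794, gives a yardstick. Of the 945 sites, 220 had a replicate 1 number within 4794, 16 had a replicate 2 number within it, and 0 had both. At combined peaks 3087 of the 3933 had both.

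The combined list left out hardly any site that both replicates numbered low. The source column names SPP with the irreproducible discovery rate, but how the combined list was made is not given beyond that. If it was made from the ranks in both replicates, the pattern described here would be set by its making. Of the 2797 shared sites whose larger number was 4000 or less, 0 lay outside the combined list. With a larger number of 4001 to 5000 it was 1 of 355, with 5001 to 6000 it was 35 of 324 (10.8%), and with 6001 to 7000 it was 110 of 262 (42.0%). From 12001 to 13000 it was 137 of 169 (81.1%). The boundary was sharp along the replicate 2 numbering and gradual along that of replicate 1. By replicate 2 number, the share outside the combined list was 5.58% at 4001 to 5000, 39.9% at 5001 to 6000, 74.4% at 6001 to 7000 and 86.8% at 7001 to 8000. By replicate 1 number the same groups gave 32.1%, 43.6%, 46.9% and 53.8%. Sites with a poor number in replicate 1 could thus be in the combined list, while a poor number in replicate 2 nearly always went with absence from it. In 572 of the 945 sites (60.5%) the replicate 2 number was the larger. The rule admits numbers to 14000 in replicate 2 but only to 13000 in replicate 1. In 70 of the sites the replicate 2 number was 13001 to 14000, so there it had to be the larger. The share among shared sites at combined peaks was not computed.

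**Figure D3:**
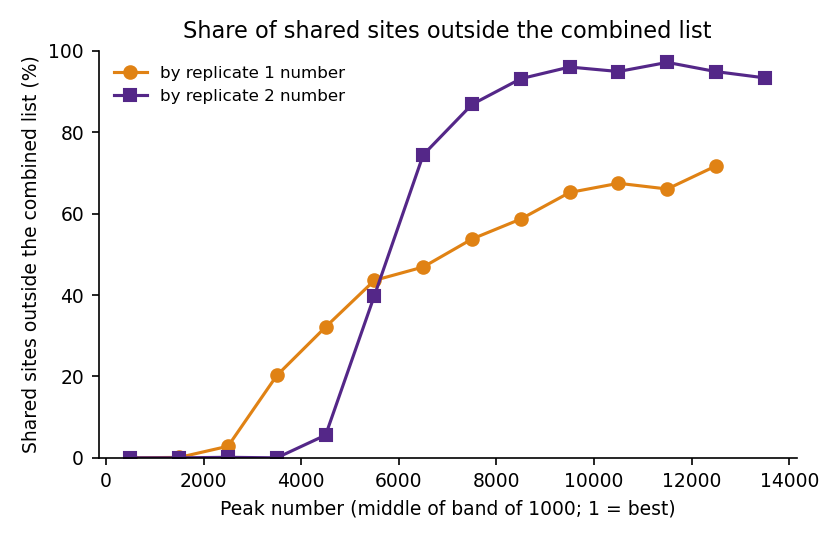
Share of all 4878 shared sites that lie outside the combined list (y axis, %) by peak number (x axis, middle of bands of 1000), counted by replicate 1 number (orange circles) and by replicate 2 number (purple squares). Between numbers 4001 and 8000 the replicate 2 curve climbs to 86.8% and the replicate 1 curve to 53.8%.

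Within the 945 sites, the order in one replicate said almost nothing about the order in the other. Spearman's rho between the peak numbers was -0.03 across the 945 sites and 0.80 across the 3933 at combined peaks. Across all 4878 shared sites together it was 0.82. The 945 sites are those left after sites low in both numberings were taken out, and the number limits bound them from above. It was -0.07 across the 551 sites with midpoints within 50 bp. A number at least 2 times larger in one replicate than in the other occurred in 214 of the 945 sites (22.6%) and in 716 of the 3933 (18.2%).

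Next to the boundary of the combined list, the sites outside it had midpoints farther apart than those inside it. With a larger number of 4001 to 6000, the median distance was 58.5 bp in 36 sites outside (95% interval of the median 47 to 78 bp) and 33 bp in 643 sites at combined peaks (29 to 36 bp). With 6001 to 7000 it was 48.5 bp in 110 sites (37 to 59 bp) against 33 bp in 152 (27 to 40 bp), with overlapping intervals. With 7001 to 8000 it was 42 bp in 115 sites (33 to 53 bp) against 29 bp in 101 (26 to 36 bp). With 8001 to 10000 the medians were 40 bp in 228 sites and 36.5 bp in 120, with 10001 to 12000 they were 41 bp in 249 sites and 36 bp in 83, and with 12001 to 14000 they were 39 bp in 207 sites and 40 bp in 37. The median was larger outside the combined list in 5 of these 6 groups, and in the first of them the intervals were apart.

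The site that came closest to the head of both lists was on chromosome V at 9424512 to 9424811 (WS220), with number 4579 in replicate 1 and 4863 in replicate 2, midpoints 78 bp apart and a combined peak 482 bp away. On X the best site was at 6057527 to 6057826, with numbers 4029 and 5029 and the nearest combined peak 4454 bp away. Chromosome II followed with a site at 13829520 to 13829819, numbers 5102 and 4185. On chromosome IV the best was at 14836905 to 14837204; its replicate 2 number of 2995 was the lowest of all 945, its replicate 1 number was 5139, and its midpoints were 12 bp apart. Chromosome III had its best site at 354994 to 355293, where the replicate 1 number of 1953 was the lowest of all 945 and the replicate 2 number was 5238. A combined peak began or ended only 35 bp from this site, and its replicate 2 partner did overlap that list. The best site on chromosome I, at 6885295 to 6885594, had numbers 4126 and 5505 and midpoints exactly at the limit of 100 bp.

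The next sites in this order were mostly on chromosome II. They began at 8743007 (numbers 3605 and 5375), at 5042519 (5418 and 4021) and at 13304488 (3319 and 5494, a replicate 1 score at the ceiling, and 12756 bp from the nearest combined peak). A site on V began at 8609766 (5292 and 5211) and another on X at 1339015 (5270 and 5469). Of the 10 best sites, 4 were on II, 2 on V, 2 on X, 1 on III and 1 on IV. Their distances to the nearest combined peak ran from 35 to 12756 bp. Best refers to peak number alone. In order of the larger number, the midpoints of these 10 were 78, 69, 66, 12, 59, 89, 89, 97, 50 and 92 bp apart. The 36 sites with a larger number of 4001 to 6000 had 16.7% of midpoints within 20 bp. At combined peaks the same range gave 33.7% of 643.

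The values on either side of each limit were close. The last replicate 1 number inside was 12970, on chromosome IV at 8587700 to 8587999, and the first outside was 13024, on X at 13558527 to 13558826. In replicate 2 the last number inside was 13982, paired with a site on V at 11880113, and the first outside was 14007, paired with a peak on I at 4915819. The nearest pair beyond the distance limit lay 101 bp apart, on I at 3100940, with numbers 3381 and 8418. The site nearest to a combined peak without touching it was on III at 9619373 to 9619672, 4 bp away. The smallest overlap among shared peaks that did touch one was 29 bp, on II at 12768387 to 12768686, where the numbers were 877 and 5345. Only 4 of the 945 sites had a replicate 2 partner that itself overlapped a combined peak, 3 of them on III and 1 on I.

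Peak width did not vary among the sites. Each of the 945 had the fixed width of its lists, 300 bp in replicate 1 and 336 bp in replicate 2. At combined peaks 87.0% of the 3933 had this width in replicate 1 and 70.8% in replicate 2, and the others were of another width. Of the 7653 replicate 1 peaks outside the combined list with no partner, all had the fixed width as well. Peaks of these widths with midpoints within 100 bp must overlap, so each of the 945 overlapped its partner. The closest sites had midpoints 227 bp apart, so 0 could share a partner within 100 bp.

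Chromosomes III and I held the sites most densely, as they did the shared sites at combined peaks, and X did not stand at the low end. Per Mb of the extent covered by the lists there were 12.4 on chromosome III, 11.3 on I, 9.75 on II, 8.86 on X, 8.23 on IV and 7.36 on V. At combined peaks the densities were 55.9 on III, 52.9 on I, 40.3 on II, 29.4 on X, 37.7 on IV and 27.3 on V. V was the least dense in either set, while X stood above IV outside the combined list and below it at combined peaks. X held 157 of the 945 sites (16.6%, Wilson 95% interval 14.4 to 19.1%) and 521 of the 3933 at combined peaks (13.2%, 12.2 to 14.3%). Among peaks without a partner it held 1331 of 7653 (17.4%, 16.6 to 18.3%). The ratio of X to autosome density was 0.93 (interval 0.78 to 1.10) in the 945 sites, 0.71 (0.65 to 0.78) at combined peaks and 0.98 (0.92 to 1.04) in peaks without a partner. The interval for the 945 sites contains 1. These sets differ in peak number, and whether number or membership of the combined list goes with the X share was not tested.

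Seen from the shared sites, the share that lay outside the combined list was largest on X, with 157 of 678 (23.2%, Wilson 95% interval 20.1 to 26.5%). On V it was 154 of 725 (21.2%, 18.4 to 24.4%), on II 19.5%, on III 18.2%, on IV 17.9%, and lowest on I with 170 of 967 (17.6%, 15.3 to 20.1%). The interval of X started at 20.14% and that of I ended at 20.11%, so they did not overlap, and those of the other chromosomes overlapped that of X.

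**Figure D4:**
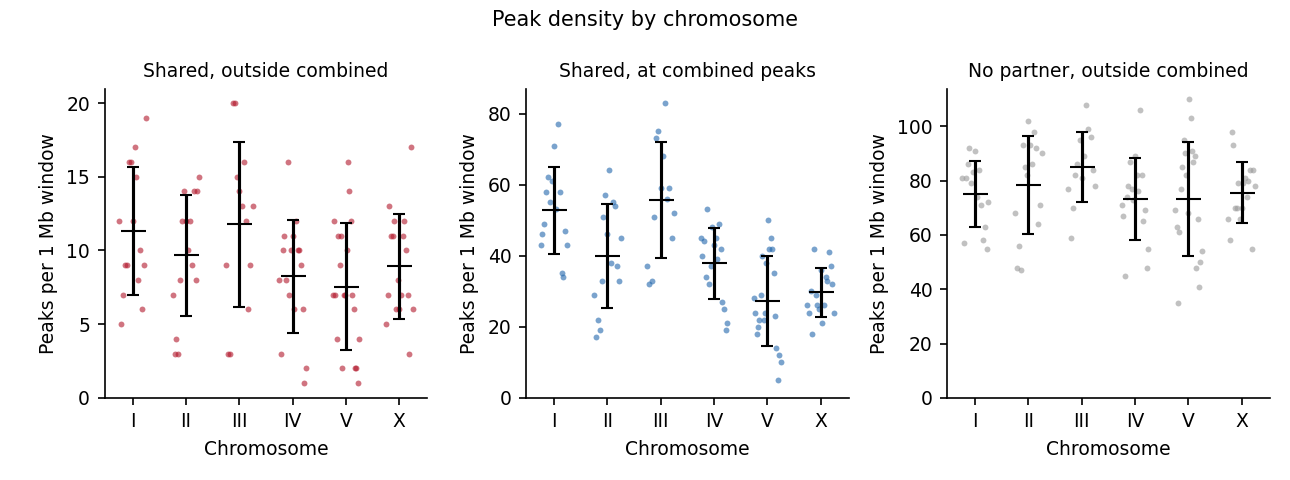
Peaks per 1 Mb window (y axis) on each chromosome (x axis), for shared sites outside the combined list (left), shared sites at combined peaks (middle) and replicate 1 peaks outside the combined list without a partner (right); points are windows, and bars are the mean and SD over windows. X averages 8.94 in the left panel, within the range of the autosome means, and 29.6 in the middle panel, where only V is lower.

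Windows of 1 Mb held 1 to 20 of the sites, with 9.39 ± 4.43 on average (SD, n = 97 windows, which are not replicates). The fullest were 3 to 4 Mb and 4 to 5 Mb of chromosome III with 20 each, and the next was 14 to 15 Mb of I with 19. The emptiest were 15 to 16 Mb of IV and 18 to 19 Mb of V with 1 each. On X the windows held 8.94 ± 3.56 (n = 17), against 7.55 ± 4.29 on V (n = 20) and 11.8 ± 5.59 on III (n = 13).

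On autosomes the sites were denser in the centres than on the arms, with the centre taken as the third of a chromosome around its middle. The 5 autosome centres carried 11.8 sites per Mb and the arms 8.43, a ratio of 1.40 (interval 1.21 to 1.61). The same ratio was 1.40 (1.31 to 1.50) for shared sites at combined peaks and 1.24 (1.18 to 1.31) for peaks without a partner, so the intervals of the sites and of the peaks without a partner overlap. Each autosome had a ratio above 1 for the 945 sites, from 1.23 on III to 1.62 on I, although the intervals on II, III and IV included 1. On X the ratio was 0.91 (0.65 to 1.27).

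Sites outside the combined list lay nearer to combined peaks when they had a partner. The median gap to the nearest combined peak was 4359 bp for the 945 sites (95% interval of the median 3934 to 4920 bp) and 6743 bp for the 7653 peaks without a partner (6498 to 6993 bp). Within 10 kb of a combined peak lay 685 of the 945 (72.5%), against 4721 of the 7653 (61.7%). Within 1 kb it was 147 (15.6%, Wilson 95% interval 13.4 to 18.0%) against 895 (11.7%, 11.0 to 12.4%). The other 798 of the 945 sites lay more than 1 kb from any combined peak. Closer in, 27 of 945 (2.86%) and 226 of 7653 (2.95%) lay within 300 bp.

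The median gap was smaller with a partner than without in each of 3 ranges of peak number and on each chromosome, although not all intervals were apart. For numbers 5001 to 9000 the median gaps were 4323 bp (3597 to 5673 bp) with a partner and 6656 bp (6260 to 7043 bp) without, and for 9001 to 13000 they were 4871 bp (4126 to 6068 bp) and 7284 bp (6892 to 7648 bp). Up to number 5000 the values were 3881 bp (2828 to 4736 bp) and 5164.5 bp (4488 to 5938 bp), whose intervals overlap. By chromosome the widest contrast was on V, with 4743 bp (3288 to 7109 bp) against 9952 bp (9079 to 10947 bp). IV followed with 4315.5 bp (3120 to 6068 bp) against 6859 bp (6362 to 7493 bp), and on I it was 3344.5 bp (2703 to 3900 bp) against 4571 bp (4246 to 5095 bp). The intervals overlapped on II, with 4748 bp (4192 to 6169 bp) against 6677 bp (5953 to 7314 bp), and on III, with 3303 bp (2496 to 4238 bp) against 4599.5 bp (4175 to 5035 bp). X had the smallest relative contrast, 7594 bp (5544 to 9560 bp) against 9428 bp (8564 to 10460 bp), and its intervals overlapped too. Within 1 kb the order was not the same everywhere: on I 12.9% of the sites and 16.3% of the peaks without a partner lay that close, while on V it was 18.8% and 7.94%.

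**Figure D5:**
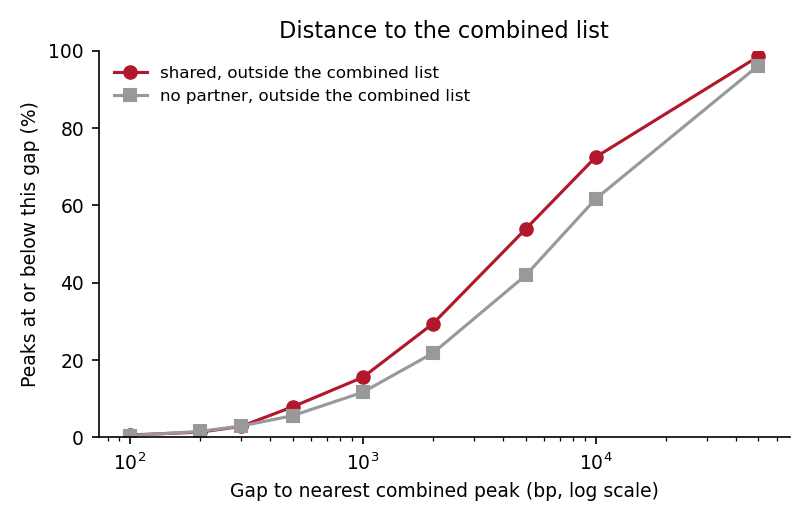
Cumulative share of peaks (y axis, %) at or below a given gap to the nearest combined peak (x axis, bp, log scale) for shared sites outside the combined list (red circles) and for replicate 1 peaks outside it without a partner (grey squares). The curves run together up to 300 bp (2.86% and 2.95%) and separate beyond it, reaching 72.5% and 61.7% at 10 kb.

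Few of the sites had a neighbour of the same set within 1 kb, and no chance level was computed for their spacing. Neighbouring midpoints lay a median of 63261 bp apart, and 18 of 939 distances (1.92%) were 1 kb or less, against 197 of 3927 (5.02%) at combined peaks. These shares depend on how many sites each set holds, so they do not show which set is the more clustered. The closest pair was on chromosome IV at 10342138 to 10342437 and 10342365 to 10342664, whose midpoints lay 227 bp apart. Their replicate 1 numbers were 2774 and 2736, among the lowest of the 945, while their replicate 2 numbers were 10429 and 5989. The next pairs were on I at 14864929 and 14865427 (498 bp apart) and on II at 12052643 and 12053169 (526 bp apart).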

How the data were processed

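Peak lists of 2 ChIP samples and 1 combined list were used. Per the file headers, coordinates are WormBase WS220; the source column names SPP with the irreproducible discovery rate. Which aligner, versions and thresholds were used, and how the combined list was made, is not given in the sources used here. The authors deposited a score for each peak, on a scale that no label or header states, and it served only to describe peaks within a list. From these lists, midpoints, overlaps, gaps and densities were computed with Python 3.11.15, numpy 2.4.6, pandas 2.3.3 and scipy 1.17.1, and figures with matplotlib 3.10.9. The extent of a chromosome is the largest peak end in any list. Intervals of a median come from binomial order statistics, and intervals of density ratios from the Wilson interval of the share behind them. Named sites are the 10 with the smallest value of the larger peak number, the best on each chromosome, those nearest each limit, the fullest window and the 3 closest pairs. The procedures were tested on simulated lists. Mitochondrial peaks were left out of the comparisons. The sites and comparisons were chosen with earlier results of these data known. A planned description of genes and motifs was not made, since it needs a WS220 genome.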

Additional observations from a re-analysis of the deposited data

Results flagged for a closer look

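Mitochondrial peaks entered no comparison. Of the 29 mitochondrial peaks of replicate 1 within the number limit, 13 had a replicate 2 partner within 100 bp. The combined list holds 0 mitochondrial peaks at all, so these 13 could not lie in it. They were picked out because they met the limits of the rule but lay outside the comparisons. Their replicate 1 numbers ran from 239 to 2120, better than most of the 945 nuclear sites. Replicate 2 had 23 peaks within its limit on an extent of only 13836 bp, and circular shifts there gave a mean of 9.65 partners (range 3 to 15), a range that includes 13.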

How the results depend on the processing

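Of 60 alternative values, 33 stayed within the interval of the value reported (counts: within 1.5 times) and 27 did not. For ratios, crossing 1 was also counted as a move. With midpoints within 50 bp there were 551 sites, a median distance of 24 bp, a spacing of 122304 bp and 4.56 times the shift mean; within 150 bp the distance was 58 bp, the spacing 47180.5 bp and the factor 3.42. With peak numbers limited to 6500 and 7000 there were 126 sites, a distance of 57 bp, an X to autosome ratio of 1.27, a centre to arm ratio of 1.67, a spacing of 449914 bp and a factor of 3.44. With no limit there were 3233 sites, a gap of 5147 bp to combined peaks, a spacing of 17989 bp and a factor of 2.58. Sites at least 1 kb from combined peaks gave an X ratio of 1.01, a gap of 5969 bp and a spacing of 76549 bp. Shifts of 5 to 50 kb, which keep regional density, gave a factor of 3.56. Using only replicate 2 peaks outside the combined list, chosen after seeing the data, gave 6.04. Fewer or more sites change spacing by construction, as the distance limits do for distance and the gap limit for gap; the cause of the other moves was not tested. Counting from replicate 2 gave 942 sites. Requiring mutually nearest partners kept the same 945, so its values among the 33 only repeat those reported. Leaving out either replicate, with partners no longer required, gave X ratios of 0.97 to 1.02, centre ratios of 1.26 to 1.37, gaps of 5032 to 6486.5 bp and spacings of 5517 to 7353.5 bp. The X ratio thus fell on either side of 1. The centre ratio was above 1 in each alternative tried, 1.56 with the middle 50% as centre. No paired analysis was possible because ChIP and input share their replicate numbers but only the ChIP lists were analysed here. Depth is unknown, so weak peaks cannot be weighed by reads.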

Other observations

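Across 97 windows of 1 Mb, the number of shared sites outside the combined list went with the number of shared sites at combined peaks (Pearson's r = 0.60, Spearman's rho = 0.58) and with the number of replicate 1 peaks without a partner (0.55 and 0.57). Peaks without a partner and shared sites at combined peaks gave 0.59 and 0.57. These are descriptions across windows of the same libraries, and neighbouring windows are not independent. A further 440 replicate 1 peaks within the number limit overlapped a combined peak but had no replicate 2 midpoint within 100 bp.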
